A study of Rattus norvegicus with 9 samples.

Results

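The profilin, cofilin and LIM kinase genes Pfn1, Pfn2, Cfl1, Limk1 and Limk2 were followed in prefrontal cortex from 9 males of the inbred Lewis strain of rat, each hybridised to its own expression array. Of the 5 genes, 4 had a probe set listed for that gene alone, which gave 5 probe sets among the 12783 with a single symbol (10411 genes). Pfn1, Limk1 and Limk2 had 1 probe set each and Pfn2 had 2. The only probe set listed for Cfl1 was listed for a further gene as well, so no value is given for Cfl1. The Entrez gene identifiers of the measured genes are 64303 for Pfn1, 81531 for Pfn2, 65172 for Limk1 and 29524 for Limk2. The family was selected on 2 relations measured in the same 9 rats, that of Pfn1 with sugar feeding and that of Limk1 with the plus maze, and these are described here without a test.

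The rats weighed 200 to 250 g, received no treatment and formed 1 group without a control. Cortex was dissected free of the olfactory bulb 12 days after behavioural testing had ended. The labels give each animal 4 behavioural values, called startle, locomotion, plus maze and sugar feeding, without units, and the plus maze is not among the tests that the design text names. The labels do not say how these animals were picked from those tested. The question in the title is whether mRNA levels go with behaviour among animals of the same strain.

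Actin filaments give dendritic spines their shape and are built and taken apart throughout the life of a synapse. Profilins bind actin monomers and hand them to growing filament ends. Cofilin severs and disassembles filaments, and the LIM kinases switch cofilin off by phosphorylating it, while slingshot phosphatases switch it back on. LIM kinases are in turn activated by p21-activated kinases. In mammals Pfn1 is found in nearly all cell types and Pfn2 mainly in the nervous system.

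The transcription start regions of Pfn1, Pfn2 and Limk1 are shown because Pfn1 and Limk1 led to the choice of the family and Pfn2 is the paralog of Pfn1. Each sequence is the 250 bases before the annotated start, read 5′ to 3′ on the strand of the gene, from RefSeq (build GRCr8). The window of Pfn1 is chr10:55866588-55866837 on the minus strand, that of Pfn2 chr2:144222937-144223186 on the minus strand and that of Limk1 chr12:27662927-27663176 on the plus strand. Capitals mark GC boxes, GGGCGG on either strand, the letters known to be bound by Sp family factors.
Pfn1: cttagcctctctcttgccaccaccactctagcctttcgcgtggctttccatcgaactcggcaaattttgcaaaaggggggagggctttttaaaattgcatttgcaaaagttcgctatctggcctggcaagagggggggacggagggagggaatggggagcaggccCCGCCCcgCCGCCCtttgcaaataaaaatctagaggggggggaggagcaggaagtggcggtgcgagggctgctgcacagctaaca
Pfn2: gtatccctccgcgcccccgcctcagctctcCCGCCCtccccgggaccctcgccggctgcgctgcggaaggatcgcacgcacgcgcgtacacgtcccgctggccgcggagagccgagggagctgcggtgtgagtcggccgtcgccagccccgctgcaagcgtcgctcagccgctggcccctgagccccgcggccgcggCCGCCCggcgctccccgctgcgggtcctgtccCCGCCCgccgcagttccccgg
Limk1: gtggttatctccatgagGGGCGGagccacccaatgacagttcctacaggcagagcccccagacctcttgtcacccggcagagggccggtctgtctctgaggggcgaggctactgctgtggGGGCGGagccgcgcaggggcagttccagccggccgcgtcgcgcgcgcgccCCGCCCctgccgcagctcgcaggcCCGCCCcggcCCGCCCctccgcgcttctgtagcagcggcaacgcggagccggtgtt

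GC boxes were found in the windows of all 4 measured genes, 2 in Pfn1, 3 in Pfn2, 5 in Limk1 and 3 in Limk2, with none overlapping another motif searched. Of 33469 rat windows of the same length, 30.5% held a GC box. The window of Limk2, chr14:82509645-82509894 on the minus strand, lay partly inside the annotated gene and is not printed. Both strands were also searched for the CCAAT box (CCAAT), the TATA box (TATAAA) and the cyclic AMP response element (TGACGTCA), which 34.0%, 12.9% and 1.59% of all windows held. Among the 4 genes only Limk1 held any of these, a CCAAT box that begins at position -221 from the start.

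The paralogs differed in base composition. The Pfn2 window was 79.2% G and C with 40 CG pairs, and the Pfn1 window 57.2% with 11 CG pairs. Limk1 had 72.8% and Limk2 67.6%, against a median of 51.2% over all windows. No relation between these sequences and the expression values was tested. In the same annotation the gene bodies spanned 2706 bases for Pfn1, 5837 for Pfn2, 33909 for Limk1 and 125500 for Limk2. RefSeq lists 1 pseudogene named after Limk2, 11 named after Cfl1 and 0 after the other members.

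Pfn1 had a high mean and varied little outside 2 rats. Its log2 values in rats 1 to 9 were 9.55, 9.65, 9.55, 9.14, 9.50, 9.64, 9.50, 9.19 and 9.50, with a mean of 9.47 ± 0.183 (SD, n = 9). Rats 4 and 8 lay below all the others, and the other 7 spanned only 1.11-fold. The mean of Pfn1 stood at percentile 92.1 of all probe sets on the array.

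Pfn2 was measured by 2 probe sets whose order of rats differed. The probe set with the higher mean had log2 values of 11.04, 10.91, 11.05, 10.98, 10.92, 11.06, 11.20, 10.79 and 10.81 in rats 1 to 9, with a mean of 10.97 ± 0.130 (SD, n = 9). Rat 7 was highest and rats 8 and 9 were lowest. The other probe set had 9.61, 9.81, 9.63, 9.09, 8.89, 9.48, 9.43, 9.61 and 9.87, with a mean of 9.49 ± 0.320 (SD, n = 9). Here rats 4 and 5 were low and rat 9 was high, so that its span was 1.97-fold against 1.33-fold for the first.

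The correlation between the Pfn2 probe sets was r = -0.213 (exact permutation p = 0.577), and the rank correlation rho was -0.333 (exact permutation p = 0.385). It was 0.198 without rats 8 and 9 and -0.178 without rats 7 and 8, the extremes of the first probe set. Among 749 genes with exactly 2 probe sets kept, the median r between them was 0.135, and 25.6% had an r at or below that of Pfn2. Statements on Pfn2 below therefore name the probe set.

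Limk1, a kinase best known from neurons, was the most variable of the 5 probe sets. Its log2 values in rats 1 to 9 were 5.35, 5.54, 5.86, 5.82, 5.82, 5.09, 6.50, 6.44 and 6.43, with a mean of 5.87 ± 0.504 (SD, n = 9). Rats 7, 8 and 9 were high and rat 6 was lowest, a span of 2.67-fold. Its SD stood at percentile 95.1 of the 9520 probe sets kept, and its mean at percentile 61.7 of the array.

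Limk2, the more widely expressed relative of Limk1, had log2 values of 4.48, 4.83, 4.40, 4.83, 5.48, 4.90, 4.78, 4.89 and 4.63, with a mean of 4.80 ± 0.308 (SD, n = 9). Rat 5 was high, and rats 1 and 3 were low. The span was 2.10-fold and the mean stood at percentile 54.2 of the array, where the lowest mean kept by the filter was 3.22. In bulk tissue, fewer cells of a type and less RNA per cell cannot be told apart.

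**Figure D1:**
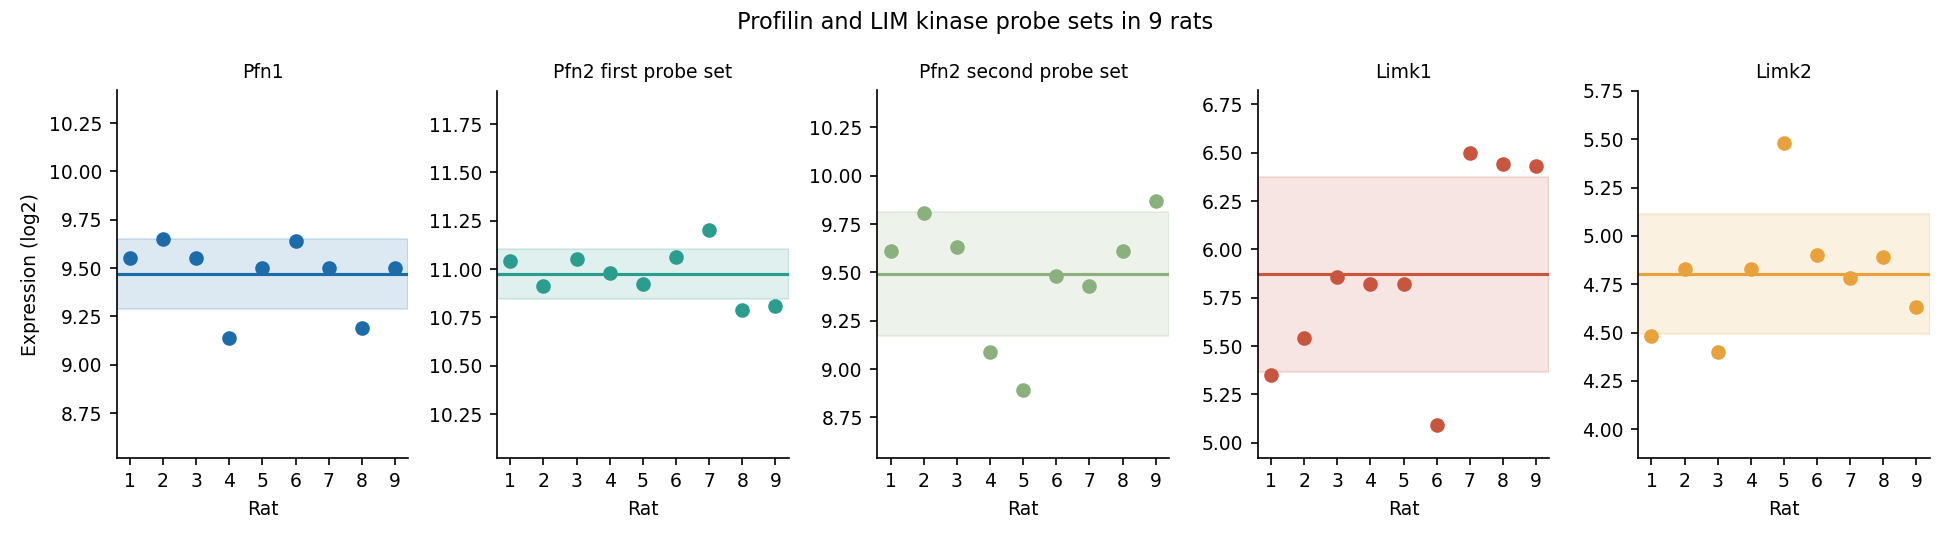
Log2 expression (vertical axes, each panel spanning the same number of log2 units) of the 5 probe sets in rats 1 to 9 (horizontal axes). Points are single rats, the line is the mean and the band is ± 1 SD; Limk1 has the widest spread, Pfn1 is low in rats 4 and 8, and the panels of Pfn2 differ from each other.

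Over the whole table rats 8 and 9 were set off from the rest, with scores of 35.6 and 30.2 on the first principal component, against -12.1 to -1.62. Among 6793 genes, 26.3% had both rats above or both below every one of the remaining 7, and of the 4 members only Pfn2, by its first probe set, did so. That probe set averaged 10.80 in rats 8 and 9, against 11.02 in the other 7, a difference of -0.22. Limk1 averaged 6.43 in rats 8 and 9, against 5.71 in the other 7, but rat 7 lay above both. This pair of arrays was picked from the same values, so the differences are not tested. Array medians ran from 4.11 to 4.28, and with 9 arrays the precision of all values is limited by their number. Markers of neurons were high, with Snap25 at a mean log2 of 13.34 and Slc17a7 at 11.57. Markers of glia were high as well, with Mbp of oligodendrocytes at 12.39 and Aldoc of astrocytes at 11.90. Some markers were low, such as Gad2 of interneurons at 4.13 and Slc1a2 of astrocytes at 3.92. Markers of other tissue were also kept. Of 6 meningeal and fibroblast markers 5 passed the filter on low values, up to Igf2 at 6.95, and the list mean ran from 4.25 to 6.06 between rats. Of 3 choroid plexus markers on the array, Folr1 at 3.48 was kept. Red blood cell markers were kept too, Hbb at 10.84 and Alas2 at 3.30, and their list mean ran from 6.62 to 8.09 between rats. Their part in the results was not tested beyond the correlations with meningeal markers given below.

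Sugar feeding ran from 0.8 to 4.7, and the relation of Pfn1 with it was one of those that chose the family. Rats 4 and 8 had the highest sugar feeding, 4.7 and 3.3, and the lowest Pfn1. Pfn1 averaged 9.16 in these rats, against 9.56 ± 0.0665 in the other 7 (SD), a difference of -0.39. The fitted slope was -0.16 log2 units per SD of sugar feeding. Within the other 7 rats, whose sugar feeding lay between 0.8 and 2.4, r was -0.330 and the slope -0.05. The relation therefore set 2 rats against 7.

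Among the members tested, which leave out Pfn1, none related to sugar feeding at the threshold. Per SD of sugar feeding, the slope of the first Pfn2 probe set was -0.05 ± 0.048 log2 units (SE, n = 9; 95% interval -0.16 to 0.06), and that of the second -0.06 ± 0.11 (-0.30 to 0.18). For the second, the slope was 0.34 without rats 4 and 8. Limk1 had a slope of 0.11 ± 0.16 and Limk2 -0.04 ± 0.10. Of these 4 probe sets, 0 had a limma adjusted p under 0.05 and 0 had an unadjusted p under 0.05, where the shares of all 9520 probe sets were 0.00% and 1.40%. The limma adjusted p was 1.00 for each. Whether the slope of Pfn1 differed from that of Pfn2 was not tested.

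Limk1 with the plus maze was the other relation that chose the family. The 3 rats with the highest plus maze values, 18.7 in rats 2 and 6 and 9 in rat 1, had the 3 lowest Limk1 values, 5.54, 5.09 and 5.35. In the other 6 rats, with plus maze values of 0 to 5.7, Limk1 lay between 5.82 and 6.50. The slope was -0.36 log2 units per SD of the plus maze, with r = -0.715 and rho = -0.709. Without rats 2 and 6 r was -0.473, and without rats 8 and 9 it was -0.730.

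Limk2 showed no relation with the plus maze at the threshold, with a slope of 0.03 ± 0.10 (SE, n = 9, 95% interval -0.21 to 0.27). The slopes were 0.08 ± 0.059 for Pfn1, 0.01 ± 0.050 for the first Pfn2 probe set and 0.08 ± 0.11 for the second. Without rats 2 and 6 the slope of Pfn1 was -0.06 and those of both Pfn2 probe sets and Limk2 were also below 0, from -0.02 to -0.00044. Of these 4 probe sets, 0 had a limma adjusted p under 0.05 and 0 had an unadjusted p under 0.05, where the shares of all probe sets were 0.00% and 2.99%. The limma adjusted p was 0.999 for each, and the difference between Limk1 and Limk2 was not tested.

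**Figure D2:**
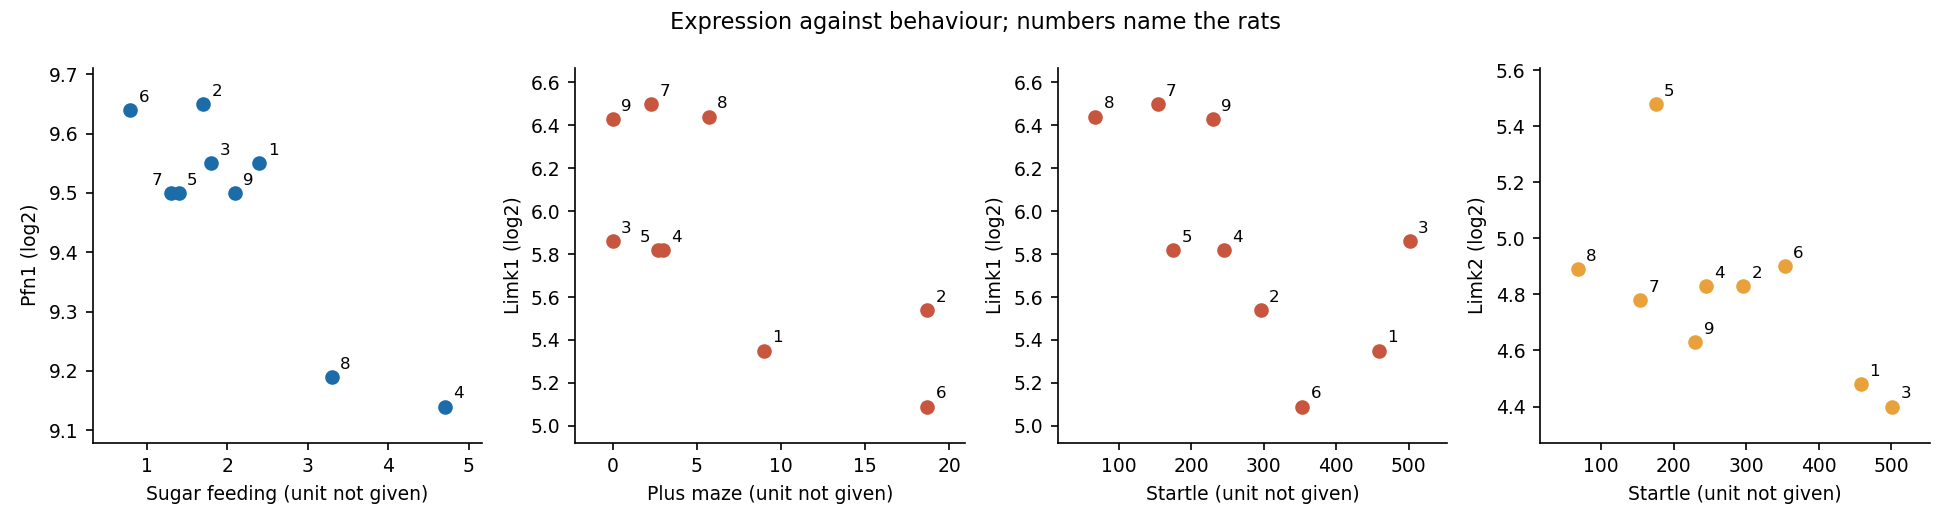
Log2 expression (vertical axes) against a behavioural value in the units of the labels (horizontal axes), 1 point per rat with its number. From left to right: Pfn1 is lowest in rats 4 and 8, which have the most sugar feeding; Limk1 is lowest in rats 1, 2 and 6, which have the highest plus maze values; Limk1 and Limk2 against startle have slopes of -0.33 and -0.19.

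On startle both LIM kinases had negative slopes and both profilins positive ones over 9 rats; without rats 8 and 9 the slope of the first Pfn2 probe set was -0.00019. Startle ran from 67.7 in rat 8 to 501 in rat 3. Per SD of startle, the slope of Limk1 was -0.33 ± 0.13 log2 units (SE, n = 9; 95% interval -0.62 to -0.04), with a limma p of 0.0291 and an adjusted p of 0.359. Limk2 had a slope of -0.19 ± 0.084 with a limma p of 0.0498 and an adjusted p of 0.378. The profilin slopes were 0.10 ± 0.057 for Pfn1, 0.05 ± 0.046 for the first Pfn2 probe set and 0.08 ± 0.10 for the second. That of the second was 0.21 without rats 8 and 9 and 0.03 without rat 5.

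No member passed the threshold for startle. Of the 5 probe sets, 0 passed an adjusted p of 0.05 in limma, against 0.00% of all 9520, and the 2 of LIM kinases had an unadjusted p under 0.05, which 13.2% of all probe sets had. The median slope of the 5 was 0.05, against 0.021 over all probe sets. The adjusted p of the 5 ran from 0.359 to 0.731.

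The relation of Limk1 with startle gave r = -0.657 (exact permutation p = 0.0568), and the rank correlation rho was -0.669 (exact permutation p = 0.0546). Rats 7 and 8, with startle of 153.7 and 67.7, had the 2 highest Limk1 values, 6.50 and 6.44. Rat 9 was close to them at 6.43, with startle of 230 against a median of 244.7. Rat 5, with startle of 175.4, had 5.82. The r was -0.821 without rats 1 and 3, which had the highest startle, and -0.533 without rats 8 and 9 (exact permutation p = 0.223). In a fit with an added term that marks rats 8 and 9, the slope was -0.23.

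For Limk2 the relation with startle gave r = -0.615 (exact permutation p = 0.0725), and the rank correlation rho was -0.500 (exact permutation p = 0.178). Rats 1 and 3 had the highest startle, 458.6 and 501, and the lowest Limk2, with a mean of 4.44 against 4.90 ± 0.268 (SD) in the other 7 rats. Without them r was -0.175, so the relation rested on these rats. Without rats 8 and 9 it was -0.748 (exact permutation p = 0.0417). Between Limk1 and Limk2 r was -0.0107 (exact permutation p = 0.979).

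Locomotion, which ran from 536 to 1102, showed no relation with a member at the threshold. Per SD of locomotion, the slope of Pfn1 was -0.06 ± 0.063 log2 units (SE, n = 9; 95% interval -0.20 to 0.08) and that of the first Pfn2 probe set -0.05 ± 0.047 (-0.16 to 0.05). The second Pfn2 probe set had 0.06 ± 0.11, Limk1 -0.03 ± 0.17 and Limk2 -0.04 ± 0.10. Of the 5 probe sets, 0 had a limma adjusted p under 0.05 and 0 had an unadjusted p under 0.05, where the shares of all probe sets were 0.00% and 1.96%. Leaving out rats 1 and 3, which had the most extreme locomotion, the r of the first Pfn2 probe set was -0.829, against -0.410 over 9 rats (exact permutation p = 0.274), and that of Pfn1 was -0.656, against -0.313 (exact permutation p = 0.415).

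**Figure D3:**
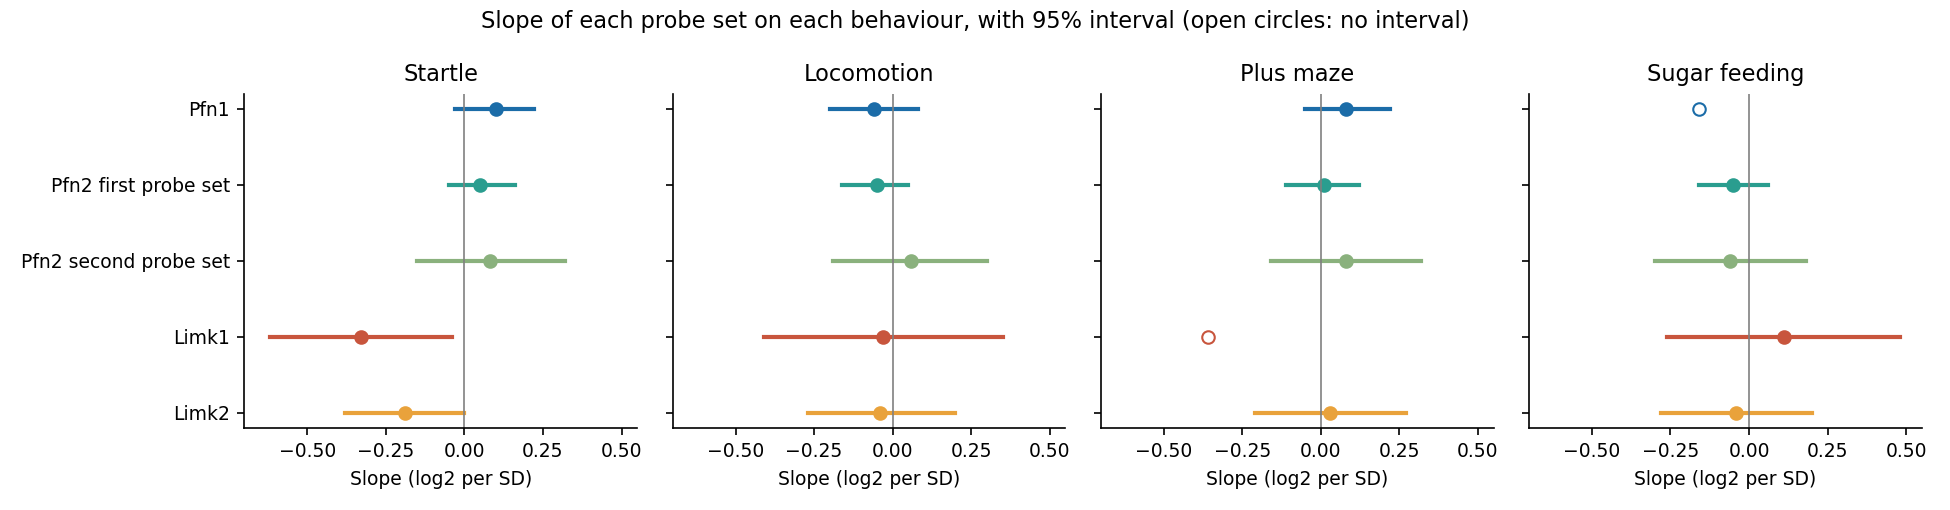
Slope of each probe set (rows) on each behaviour (panels) in log2 units per SD of the behaviour, with its limma 95% interval as a bar. Open circles are the relations that chose the family, -0.16 for Pfn1 on sugar feeding and -0.36 for Limk1 on the plus maze, drawn with no interval; the startle panel has both LIM kinases below 0, at -0.33 and -0.19.

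The members were next set against each other, 10 pairs of probe sets in all. In limma fits of all other probe sets on each member, 0 pairs passed an adjusted p of 0.05 and 1 had an unadjusted p under 0.05. The share of all probe sets that passed an adjusted p of 0.05 was 0.00% in each of the 5 fits. The share with an unadjusted p under 0.05 was 2.94% on Pfn1, 14.8% and 7.47% on the first and the second Pfn2 probe set, 15.4% on Limk1 and 5.22% on Limk2.

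The pair with an unadjusted p under 0.05 was the second Pfn2 probe set with Limk2. Its r was -0.701 (exact permutation p = 0.0378, limma adjusted p = 0.607) and its rho -0.650 (exact permutation p = 0.0666). Rat 5 had the lowest value of this Pfn2 probe set and the highest Limk2, and without rat 5 r was -0.309. Leaving out rats 4 and 5, both low in this Pfn2 probe set, it was -0.203. The first Pfn2 probe set had r = -0.224 with Limk2 (exact permutation p = 0.572).

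Pfn1 and Limk1 had r = -0.470 (exact permutation p = 0.199), and rho was -0.603 (exact permutation p = 0.0921). The limma adjusted p of this pair was 1.00. Without rats 4 and 8, the low Pfn1 rats, r was -0.772, and without rats 8 and 9 it was -0.350. Pfn1 correlated with the first and the second Pfn2 probe set at r = 0.348 (exact permutation p = 0.356) and r = 0.352 (exact permutation p = 0.363). Without rats 8 and 9 these were 0.0681 and 0.614, and without rat 4 the second was 0.0448. The first Pfn2 probe set and Limk1 had r = -0.254 (exact permutation p = 0.506). It was -0.831 without rat 7, -0.751 without rats 7 and 8, and 0.436 without rats 8 and 9. Of the 10 pairs, 7 had a negative r, and 4 had the opposite sign without rats 8 and 9.

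**Figure D4:**
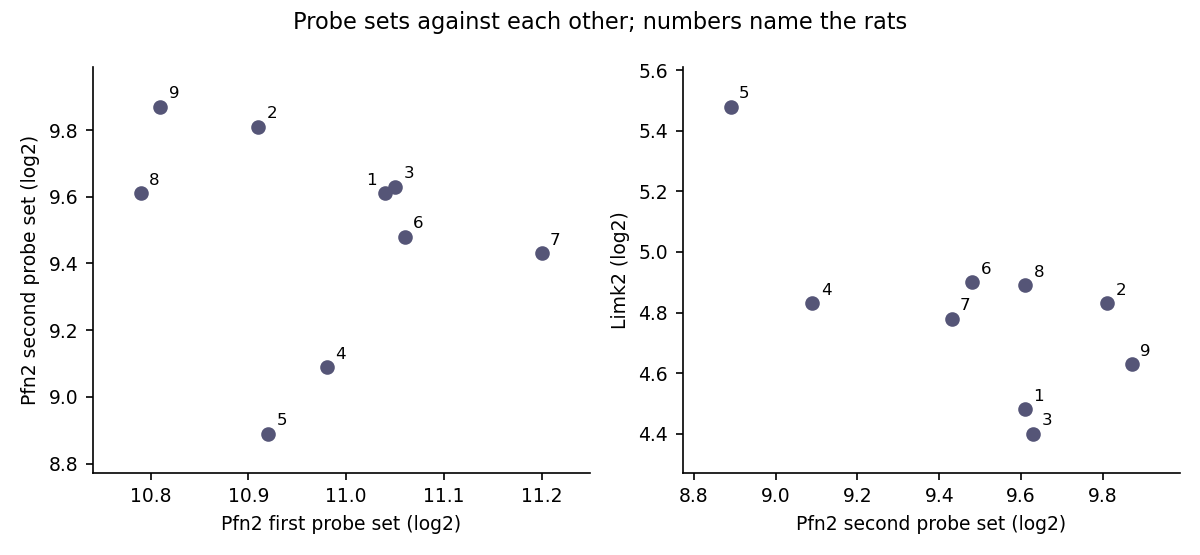
Log2 expression of the second Pfn2 probe set against the first (left) and of Limk2 against the second Pfn2 probe set (right), 1 point per rat with its number. On the left r is -0.213, with rats 4 and 5 lowest on the vertical axis, and on the right rat 5 lies alone at the upper left (r = -0.701 with it, -0.309 without it).

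The genes whose pattern was most like each member were ranked by Pearson r over the 9 rats among 6769 genes, as a description. For Limk1 the highest r were 0.928 for Tmem151a, 0.913 for Nudt3, a diphosphoinositol polyphosphate phosphatase, and 0.905 for Scaf1. The lowest were -0.952 for Herc3, a ubiquitin ligase, -0.941 for Lhx2, a homeodomain transcription factor, and -0.929 for Grcc10. Without rats 8 and 9 these 6 ran from 0.837 to 0.881 and from -0.929 to -0.907. For Limk2 the highest were 0.954 for Sirt6, a nuclear deacylase, 0.946 for Ipo4, an importin, and 0.939 for Dcaf15. The lowest were -0.910 for Grip1, a scaffold of AMPA receptors, -0.886 for Bud13 and -0.882 for Errfi1, an inhibitor of the EGF receptor. Without rats 3 and 5 these 3 were -0.486, -0.436 and -0.636, and the highest 3 lay between 0.832 and 0.890. Mean log2 values were low for Sirt6 (3.56), Grip1 (3.69), Dcaf15 (4.03) and Bud13 (4.10), against 7.54 for Ipo4 and 7.08 for Errfi1.

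For the first Pfn2 probe set the highest r were 0.946 for Marchf11, 0.932 for Ntng1, a netrin G that guides axons, and 0.912 for Matn2, a matrix protein. The lowest were -0.948 for Mycbp2, a ubiquitin ligase of axons and synapses, -0.944 for Prune2 and -0.940 for Nfat5, a transcription factor of osmotic stress. For Pfn1 the highest were 0.901 for both Smdt1, part of the mitochondrial calcium uniporter, and C11h3orf70, and 0.892 for Pfdn5, a prefoldin subunit. The lowest were -0.946 for Adcy6, an adenylyl cyclase, -0.912 for Stat3, a transcription factor of cytokine signalling, and -0.910 for Cybc1. Among the genes named for both profilins, the lowest mean log2 values were 3.78 for Marchf11, 4.10 for Adcy6 and 4.13 for Ntng1. Without rats 4 and 8 the r with Pfn1 was 0.103 for Smdt1, 0.365 for C11h3orf70 and 0.567 for Pfdn5. It was -0.466 for Adcy6, -0.402 for Stat3 and 0.281 for Cybc1. These genes share arrays and normalization with the members, and an r over 0.9 in size was found for 0.0739% of genes with Pfn1, 0.310% with Pfn2, 0.177% with Limk1 and 0.148% with Limk2.

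Other genes of the pathway were followed in 6 lists with 75 names, of which 51 were tested. In limma 0 passed an adjusted p of 0.05 for any of the 4 measures. At an unadjusted p under 0.05 there were 2 with a positive and 3 with a negative slope on startle, 1 of each on the plus maze, and 0 on locomotion and on sugar feeding. The shares of all probe sets were 13.2% on startle, 2.99% on the plus maze, 1.96% on locomotion and 1.40% on sugar feeding, so that 5 of 51 on startle was no more than the background. The list medians ran from -0.102 to 0.032 on startle, from -0.009 to 0.006 on locomotion, from -0.054 to 0.012 on the plus maze and from -0.007 to 0.04 on sugar feeding. The medians over all genes were 0.021, -0.013, 0.016 and -0.006 on the same measures.

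Among the 12 kinases and GTPases upstream of LIM kinase that were tested, 6 had a positive and 6 a negative startle slope, with a median of -0.003. Pak2, a p21-activated kinase, had a startle slope of 0.29 ± 0.10 (SE, n = 9; limma adjusted p = 0.359). Bmpr2 had -0.55 ± 0.31 on startle (limma adjusted p = 0.452) and -0.57 ± 0.31 on the plus maze (limma adjusted p = 0.999). Of the cofilin relatives and regulators 8 were tested. Cfl2, the muscle-type cofilin, had a startle slope of 0.08 ± 0.055 and a plus maze slope of 0.07 ± 0.058, and the slingshot phosphatase Ssh2 a startle slope of 0.09 ± 0.061. Of the 8 tested genes listed as profilin partners, the formin Diaph3 had a startle slope of 0.11 ± 0.043 (limma adjusted p = 0.362) at a mean log2 of only 3.25, and Wasl, an activator of the Arp2/3 complex, a plus maze slope of 0.13 ± 0.054 (limma adjusted p = 0.999).

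Of 7 tested Arp2/3 subunits, the complex that starts branched filaments, Arpc5l had slopes of -0.15 ± 0.056 on both startle (limma adjusted p = 0.359) and the plus maze (limma adjusted p = 0.999). Of the 10 tested actin-binding proteins of spines, 8 had a negative and 2 a positive slope on startle, with a median of -0.102 against 0.021 over all genes. These genes were measured on the same arrays, and their signs were not tested as a set. Dbn1, the spine actin-binding protein drebrin, had -0.12 ± 0.050 (limma adjusted p = 0.362) and Shank1, a postsynaptic scaffold, -0.20 ± 0.076 (limma adjusted p = 0.359) at a mean log2 of 3.23. The 6 tested actins, monomer binders and serum response factor genes had 3 positive and 3 negative slopes on startle.

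Levels of cell type markers were set against the 4 genes, with the first probe set for Pfn2, in 32 relations. The lowest exact permutation p adjusted over them was 0.845. Lists with only 1 or 2 genes kept were left out, those of excitatory neurons, red blood cells, choroid plexus and olfactory bulb. The list mean of excitatory neurons ran from 10.51 to 12.08 between rats, and its relation with the members was not tested. The r of largest size was that of Limk2 with 4 neuron markers, 0.760 (exact permutation p = 0.0264) and rho was 0.333 (exact permutation p = 0.385). The r was -0.0645 without rats 3 and 5, the lowest and the highest in Limk2. Oligodendrocyte markers had r = -0.628 with Pfn2 (exact permutation p = 0.0697) and -0.603 with Pfn1 (exact permutation p = 0.0926). Their r was 0.406 with Limk1 and 0.00713 with Limk2. The r with Pfn2 was -0.321 without rats 7 and 8, and that with Pfn1 -0.0597 without rats 4 and 8. With Pfn1, microglial markers had r = 0.266 (exact permutation p = 0.479), with rho at 0.667 (exact permutation p = 0.0589). Endothelial markers had r = 0.276 (exact permutation p = 0.470), with rho at 0.683 (exact permutation p = 0.0503). Interneuron markers had r = -0.496 (exact permutation p = 0.184), with rho at -0.817 (exact permutation p = 0.0108), the smallest p among the 32 rank correlations, which were not adjusted. Without rats 4 and 8 the r with Pfn1 was 0.370 for microglial, 0.554 for endothelial and -0.283 for interneuron markers. Meningeal and fibroblast markers had an r between -0.180 and 0.0671 with the 4 genes over 9 rats. Leaving out rats 4 and 8 gave r = 0.830 with Pfn1, and leaving out rats 3 and 5 gave 0.879 with Limk2. For Pfn2 it was 0.286 without rats 7 and 8, and for Limk1 -0.0097 without rats 6 and 7. Other lists also gave a large r in 7 rats. Without rats 7 and 8, Pfn2 had r = 0.813 with endothelial and 0.707 with smooth muscle and pericyte markers, against 0.282 and 0.0968 over 9 rats. These values in 7 rats were not tested.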

How the data were processed

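Total RNA of each rat was hybridised to 1 array. The table that the authors deposited holds log2 values per probe set, and GCRMA with R 2.6.2 is named in the submitters' processing notes. GCRMA subtracts an estimate of non-specific binding, which weighs most on low values.

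The 57 control probe sets and the lowest 40% of the other 15866 by mean were left out, which kept 9520 (mean log2 of 3.22 or more) and all 5 member probe sets. Of the 15866, 12783 had 1 symbol in the platform annotation, 312 several and 2771 none. Sequences and gene positions came from RefSeq (GRCr8).

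Slopes per SD of each measure were fitted in limma 3.58.1 under R 4.3.3 (lmFit, eBayes, two-sided), adjusted by Benjamini-Hochberg over 9520 probe sets. The code was tested on simulated data. A fit on a member covered the other 9519. For correlations, every one of the 362880 ways to pair the rats was run (5040 for 7 rats), two-sided, with Python 3.11.15, numpy 2.4.6, pandas 2.3.3, scipy 1.17.1 and matplotlib 3.10.9. The p-values measure the spread between these arrays, which may be partly technical.

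Members and lists were chosen with earlier results of these data known. Every member probe set is reported. For each member, by its probe set with the highest mean, the 3 genes of highest and of lowest r are named, leaving out provisional symbols (prefixes LOC, RGD, MGC and AABR). Pathway genes named are among the 4 of smallest limma p per list and measure. Alternatives were no filter, the lowest 70% left out, quantile normalization, an intensity trend with robust moderation, ranks, array weights, a term for rats 8 and 9, and leaving out these rats, the 2 farthest from a median, or each rat in turn. Pairs of the second Pfn2 probe set with the other genes were added after seeing the data.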

Additional observations from a re-analysis of the deposited data

Results flagged for a closer look

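Limk2 in rat 5 had a log2 value of 5.48, against 4.40 to 4.90 in the other 8 rats. Its gap to the next rat was 0.542 of the whole range, above the 95% limit for 9 samples in Dixon's test. Chance flags a share of about 0.05 of groups, and 5 probe sets were examined at both ends. Without rat 5 the slope of Limk2 on startle was -0.13, and its slope on sugar feeding was 0.02.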

How the results depend on the processing

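The relations that chose the family have no test and are not counted here. Over the alternatives other than leaving out 1 rat, 141 of 155 slopes and 25 of 30 correlations between members kept their direction and their side of the threshold. Leaving out each rat in turn, 153 of 162 slopes and 85 of 90 correlations did. Changing the filter, or adding an intensity trend with robust moderation, leaves a fitted slope as it was. In those alternatives the direction was fixed in advance, and only the side of the threshold could change. All 10 rank correlations had the sign of r. In no alternative did a tested member pass an adjusted p of 0.05 in limma. Over all probe sets, 1 passed for startle with no filter on low values, against 0 otherwise. Without rats 8 and 9 the first Pfn2 probe set had slopes of -0.00019 on startle and -0.02 on the plus maze, and the correlations with opposite sign were 0.198 between the Pfn2 probe sets, 0.436 and -0.252 of the first and the second with Limk1, and 0.0481 of Limk1 with Limk2. With a term for these rats the first Pfn2 probe set had -0.02 on the plus maze, with quantile normalization again -0.0045 and with ranks -0.0029. Limk1 on locomotion had 0.06 with ranks, 0.08 with array weights and 0.32 without the 2 farthest rats. In fits without the 2 farthest rats the plus maze slopes were -0.06 for Pfn1, -0.00044 and -0.02 for the first and the second Pfn2 probe set and -0.01 for Limk2, and the second Pfn2 probe set had 0.34 on sugar feeding, where ranks gave 0.02. Limk1 with Limk2 had r = 0.0874 without rats 6 and 7. Over the fits that each left out 1 rat, Limk1 ran from -0.13 to 0.23 on locomotion and from -0.02 to 0.36 on sugar feeding. Limk2 ran from -0.15 to 0.10 on locomotion, from -0.02 to 0.08 on the plus maze and from -0.13 to 0.02 on sugar feeding. The Pfn2 probe sets ran from -0.02 to 0.03 on the plus maze for the first and from -0.12 to 0.17 on sugar feeding for the second. The r of Limk1 ran from -0.188 to 0.0845 with Limk2 and from -0.0925 to 0.224 with the second Pfn2 probe set. The cause was not tested. With the lowest 70% left out, Limk1 and Limk2 were not kept and have no value. Their means stood at percentiles 61.7 and 54.2 of the array, where signal over background may limit precision, which was not tested. No paired analysis was possible because the rats form 1 group.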
